A study of Mus musculus with 2 samples.

Results

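The 6 genes described here buffer, sense and move zinc in the cell: Mt1 and Mt2, which encode metallothioneins, Mtf1, which encodes metal regulatory transcription factor 1, Slc39a8 and Slc39a14, which encode the importers ZIP8 and ZIP14, and Slc30a1, which encodes the exporter ZnT1. They were chosen for this function, with earlier results of these data known. A probe belongs to a gene when its accession, without the version, is a RefSeq transcript of that gene. They are 6 of the 20660 genes that the array's probes name in this way, with 8 probes in all, and all 6 were detected, that is, their brightest probe was well above background on both arrays.

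Total RNA of cultured primary chondrocytes from 6-day-old C57BL/6J mice was measured on 2 one-colour Agilent arrays. One array held RNA taken before loading, and the other held RNA taken 24 h after 30 min of cyclic tensile strain at 0.5 Hz and 10% elongation, which had been started after 48 h in fibronectin-coated silicon chambers. A culture kept for 24 h without loading was not analysed here. Loading and the further time in culture therefore cannot be told apart, and the labels do not say how many animals or chambers each RNA sample held. There is 1 array per time point. The differences therefore have no replicate check and no test, and each error given is the scanner software's own error for the spots of both arrays (within-array error), which is about 0.20 on the log2 scale for any bright spot. Between replicate spots of one detected probe, the SD of the log2 ratio had a median of 0.085.

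Metallothioneins are small cysteine-rich proteins that bind zinc and copper, and their genes are switched on by MTF1 when free zinc in the cell rises. MTF1 binds short metal response elements in its target promoters, among them those of Mt1, Mt2 and Slc30a1, so that a zinc load is answered by more buffer and more export. In cartilage, zinc entry through ZIP8 and the activation of MTF1 have been described as a route to matrix-degrading enzymes in osteoarthritis.

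The promoters of Mt1, Mt2 and Slc30a1 are shown so that the metal response element can be read in its context. The 250 bases before an annotated start of each gene, all on the forward strand, were taken from RefSeq (GRCm38.p6). Capitals mark matches to the core of the element, searched on both strands as TGCACNC or TGCGCNC (read as GNGTGCA or GNGCGCA from the other strand). The whole window is given for Mt2 (chr8:94172368-94172617). For Mt1 and Slc30a1 the gene begins inside the window in a longer transcript model, and the match lies downstream of that earlier start. For these genes 30 bases around the match are given, chr8:94179055-94179084 for Mt1 and chr1:191906727-191906756 for Slc30a1.
Mt2: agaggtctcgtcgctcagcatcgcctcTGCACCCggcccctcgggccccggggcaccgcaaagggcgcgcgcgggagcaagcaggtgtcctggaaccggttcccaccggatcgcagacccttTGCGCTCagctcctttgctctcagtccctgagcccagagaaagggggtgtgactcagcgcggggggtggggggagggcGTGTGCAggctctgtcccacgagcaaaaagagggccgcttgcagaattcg
Mt1: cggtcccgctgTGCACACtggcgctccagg
Slc30a1: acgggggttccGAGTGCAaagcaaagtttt
The Mt2 window held 3 matches, and those of Mt1 and Slc30a1 held 1 each. With the 50 bases after the annotated start included, the counts were 4 for Mt2, 3 for Mt1 and 2 for Slc30a1, so that they depend on where the window ends. Of 32851 promoter windows of 250 bases, 21.4% held at least 1 match and 1.26% held at least 3. The Mtf1 window held 0, and no window was available for Slc39a14. Of the windows of Slc39a8, which has 2 annotated starts in the table, the upstream one held 0 and the other held 1. Both Slc39a8 windows lie inside the gene as RefSeq draws it, downstream of its first start. These are matches of letters, and binding was not measured.

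Both metallothionein genes were lower 24 h after loading, and they were the members that differed most between the time points. The probe of Mt1 (NM_013602) read 184226 before loading and 91158 at 24 h, in arbitrary units of intensity. Mt1 was thus 2.02-fold lower, with a log2 ratio of -1.01 and 0.20 as the within-array error. The probe of Mt2 (NM_008630) read 145029 before loading and 60360 at 24 h. Its log2 ratio was -1.26 (within-array error 0.20), or 2.40-fold lower. The 2 metallothioneins were thus lower by 4.97 and 6.20 within-array errors. The difference between their log2 ratios, -0.25, was smaller than its combined error of 0.29. In bulk RNA such as this, fewer cells of a type and less RNA per cell cannot be told apart.

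**Figure D1:**
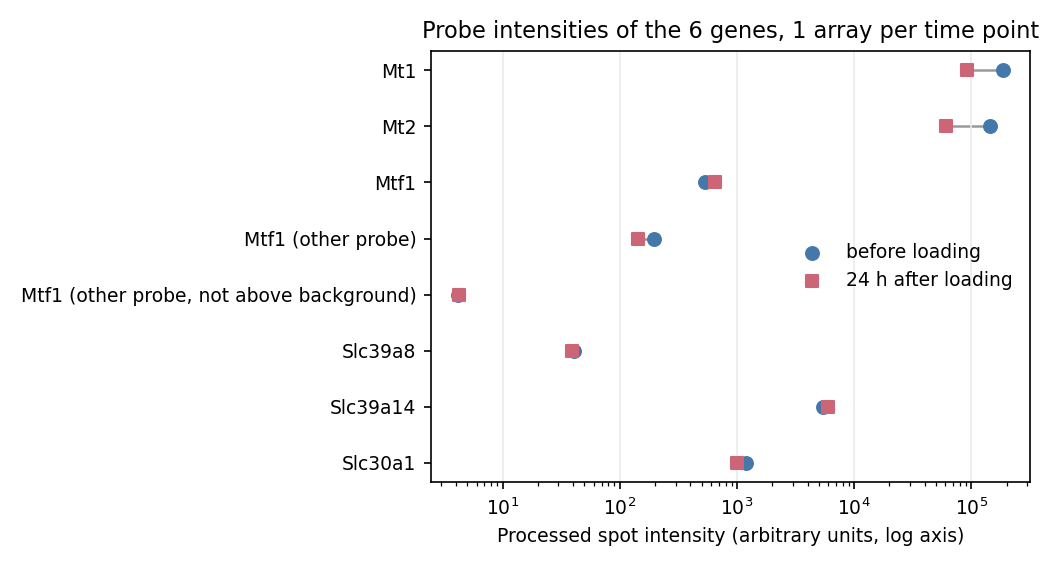
Processed spot intensity of each of the 8 probes of the 6 genes (log axis, arbitrary units), with circles for the array before loading and squares for the array 24 h after loading. Mt1 and Mt2 lie lower at 24 h, while the points of the other genes lie close together, and 1 probe of Mtf1 was not well above background before or after loading.

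Mt1 and Mt2 were the 2 members more than 2-fold lower, and 0 members were more than 2-fold higher. Of the 14231 genes detected, 1.83% were more than 2-fold lower and 0.668% were more than 2-fold higher. The log2 ratio of Mt2 was lower than those of all but 0.963% of the detected genes, and that of Mt1 was lower than those of all but 1.74%. Mt1 lay close to the 2-fold line and came inside it under 6 of 9 other settings, at most to -0.84. Mt2 stayed beyond 2-fold under all 9, between -1.28 and -1.09. The 3 settings that kept Mt1 beyond 2-fold were the authors' deposited intensities, outlier spots kept and the mean over probes. These could hardly change Mt1 or Mt2, each of which has 1 probe with 1 spot, and so are no check of them. At the smaller limit of 1.5-fold, which 5.84% of detected genes passed as lower and 3.65% as higher, the same 2 members were lower and 0 were higher.

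The metallothionein probes were among the brightest on the array, with a mean intensity above that of 99.3% (Mt1) and 99.1% (Mt2) of probes, and neither spot was saturated. Probe intensity depends on the probe as well as on the transcript and does not rank the amounts of different RNAs. Of 158 detected genes with a probe at least as bright as that of Mt2, 3 (1.9%) were more than 2-fold lower, namely Mt2, Mfsd2b (-1.11) and Mt1. These 158 genes had a median log2 ratio of -0.15 and a highest one of 0.56. Ftl1 and Fth1, the ferritin subunits that store iron and whose probes are as bright, had log2 ratios of -0.29 and -0.13.

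**Figure D2:**
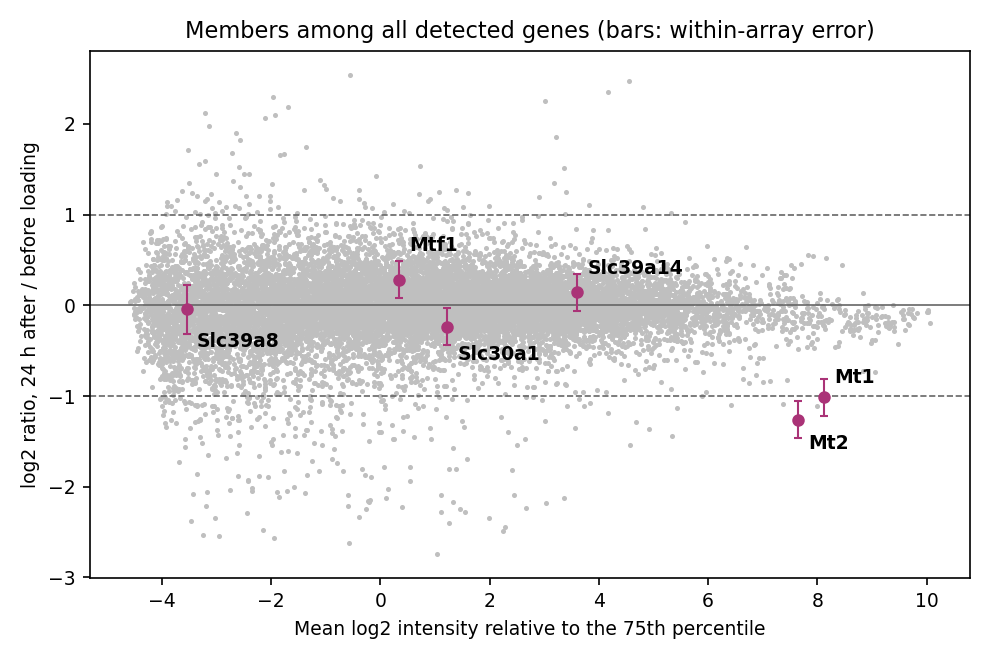
log2 ratio of 24 h after over before loading against mean log2 intensity relative to the 75th percentile, for the 14231 genes detected on both arrays (grey) and the 6 members (purple, with bars of 1 within-array error). Dashed lines mark 2-fold. Mt1 and Mt2 lie at the bright end on or below the lower line, and the other 4 members lie inside it.

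The surroundings of the spots on the array were read beside these values. Of the 30 spots within 100 µm of the Mt1 spot, 1 was more than 2-fold lower, and the 20 detected ones had a median log2 ratio of -0.06. Of the 24 spots around Mt2, 5 were more than 2-fold lower, a number reached by 4.44% of spots. None of these 5 was among the 16 detected neighbours, whose median log2 ratio was -0.13. With the local median subtracted, Mt1 had a log2 ratio of -0.95 and Mt2 one of -1.14. The probe sequences were not used here, and whether either probe also binds the transcript of the other metallothionein was not tested.

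Of the related metallothioneins, Mt3, known from brain, and Mt4, known from stratified epithelia, had probes above background that were much dimmer than those of Mt1 and Mt2. Mt3 read 391 before loading and 423 at 24 h (log2 ratio 0.11, within-array error 0.21), and Mt4 had 101 and 88.3 (-0.19, within-array error 0.23). Both differences were smaller than their within-array errors. RefSeq lists Mt4, Mt3, Mt2 and Mt1 in this order along the same stretch of chromosome 8, and Mt1 and Mt2 were the members of this cluster that lay beyond their errors.

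The zinc sensor Mtf1 had probes that differed from each other. Its brightest probe read 536 before loading and 651 at 24 h, and its log2 ratio was 0.28 with 0.20 as the within-array error. The second probe went the other way, from 195 to 142, with a log2 ratio of -0.46 (within-array error 0.21). These log2 ratios lay 0.74 apart, with a combined error of 0.29. The third probe, at 4.17 and 4.26, was not well above background before or after loading. All of these probes carry the accession NM_008636, and the mean over them was -0.05, so that the arrays give no single direction for Mtf1. Of the 28 spots around the brightest probe, 5 were more than 2-fold lower and 1 was more than 2-fold higher, and the 8 detected ones had a median log2 ratio of 0.10.

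The members that carry zinc across membranes differed little between the arrays. Slc30a1, whose product exports zinc at the plasma membrane, read 1185 before loading and 1005 at 24 h. Its log2 ratio was -0.24 (within-array error 0.20), or 1.18-fold lower, and stayed between -0.29 and -0.14 under the other settings. Slc30a1 thus shared the direction of Mt1 and Mt2, but its log2 ratio was nearer to 0. Mt1 minus Slc30a1 was -0.78 and Mt2 minus Slc30a1 was -1.03, with a combined error of 0.29 for each. Slc39a14, whose product imports zinc, iron and manganese, had 5404 before loading and 5956 at 24 h, and its log2 ratio was 0.14 with 0.20 as the within-array error. Slc39a8 was dim, at 40.6 before loading and 39.3 at 24 h, where the lowest intensity well above background was 17.3 and 17.8. Its log2 ratio of -0.05 had a within-array error of 0.27 and changed sign under 4 of 9 other settings, so that no direction can be given for it. Each of the importers is represented by 1 probe, made for one of several RefSeq transcripts (NM_001135151 for Slc39a14 and NM_001135150 for Slc39a8), and whether it also binds the others was not tested. Of the 30 spots around Slc39a14, 3 were more than 2-fold higher, a number reached by 8.23% of spots.

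The rest of the 2 transporter families was read as a whole. SLC39 proteins bring zinc into the cytosol, from outside or from organelles, and SLC30 proteins carry it out of the cytosol. Of the 14 SLC39 genes 12 were detected, and 11 of these were higher at 24 h, Slc39a8 being the exception. Among all detected genes 47.6% were higher. The median log2 ratio of the 12 was 0.22, against -0.01 for all detected genes. In 6 of the 12 the value at 24 h was higher by more than the gene's own within-array error, as it was in 20.4% of all detected genes. The number higher lay between 10 and 12 of 12 under the other settings with the same filter. The differences were small, and Slc39a11 was the only one past 1.5-fold.

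Slc39a11 read 23474 before loading and 36994 at 24 h, and its log2 ratio was 0.66 with 0.20 as the within-array error. Slc39a10 went from 136 to 180 (0.41, within-array error 0.21), Slc39a6 from 4424 to 5834 (0.40) and Slc39a13, whose product acts in the secretory pathway of connective tissue cells, from 5730 to 7185 (0.33). Slc39a7, which releases zinc from the endoplasmic reticulum, went from 59792 to 70129 (0.23). Slc39a5 and Slc39a12 were not well above background before or after loading.

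**Figure D3:**
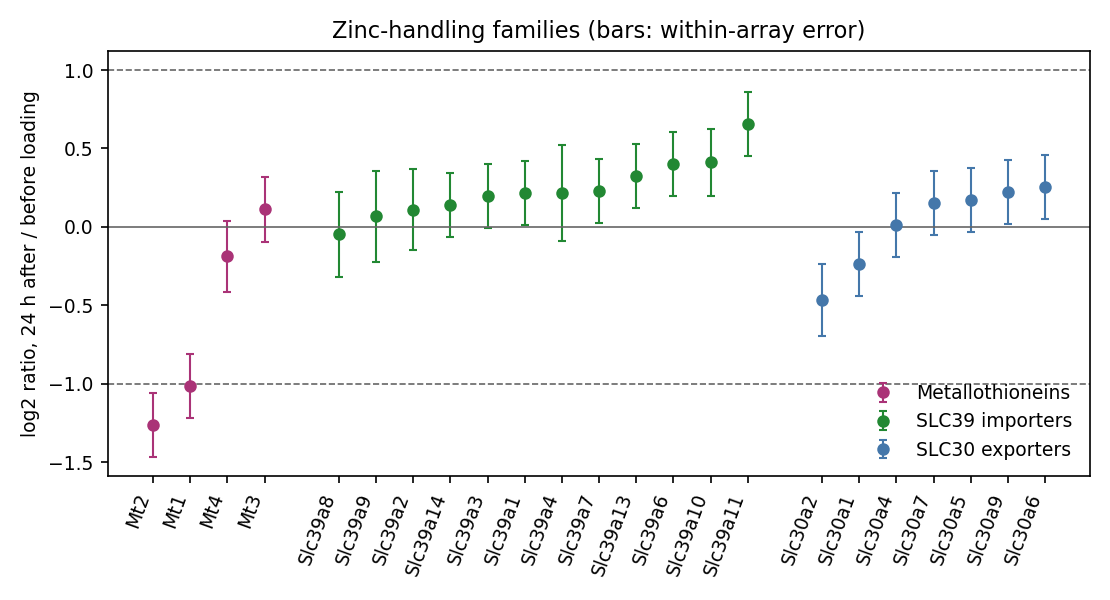
log2 ratio of 24 h after over before loading for each detected gene of the metallothionein, SLC39 and SLC30 families, sorted within each family, with bars of 1 within-array error. Dashed lines mark 2-fold. Mt1 and Mt2 lie near or below the lower line, 11 of 12 SLC39 genes lie above 0, and the SLC30 genes spread on both sides of 0.

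Of the 10 SLC30 exporters 7 were detected, 5 of them higher and 2 lower, with a median log2 ratio of 0.15. By the brightest probe of each gene, the highest was Slc30a6, at 676 before loading and 804 at 24 h (0.25, within-array error 0.20). Slc30a6, Slc30a5 (0.17) and Slc30a7 (0.15) encode the transporters that supply zinc to enzymes of the secretory pathway such as alkaline phosphatase. The dimmer probes of Slc30a7 had log2 ratios of 0.08 and 0.55, with within-array errors of 0.25 and 0.27. The lowest was Slc30a2, with 109 and 79.1 (-0.47, within-array error 0.23), followed by Slc30a1. These 2 were lower by more than their own errors, as were 22.9% of all detected genes, and 2 others, Slc30a6 and Slc30a9 (0.22), were higher by more than theirs. Slc30a3, Slc30a8 and Slc30a10 were not well above background before or after loading.

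Other genes described as targets of MTF1 lay on both sides of 0. All 9 genes of the list were detected, 6 lower and 3 higher, with a median of -0.24, which is the value of Slc30a1. Without Mt1, Mt2 and Slc30a1, 3 of the remaining 6 were lower and 3 were higher, and the median was -0.03. Ndrg1, a gene that also responds to low oxygen, read 10022 before loading and 5248 at 24 h (-0.93, within-array error 0.20), the only one of these 6 past 1.5-fold. Selenow, which encodes a selenoprotein, had 14894 and 10277 (-0.53). Gclc, of glutathione synthesis, had a log2 ratio of -0.13, Csrp1 0.06 and Pgf 0.18, all within their errors. Slc39a10, the zinc importer that MTF1 is described to repress, was higher (0.41, within-array error 0.21). The counts and medians of this list pool it with the other targets, so that higher and lower do not mean the same for every gene. Outside the members, Ndrg1, Selenow and Slc39a10 were the genes of the list beyond their own errors.

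Of the 5 matrix-degrading enzymes linked to ZIP8 and MTF1 in cartilage, 3 were detected. The collagenase gene Mmp13 had 617 before loading and 867 at 24 h (0.49, within-array error 0.20), and the aggrecanase gene Adamts5 read 68.4 and 105 (0.62, within-array error 0.22) on its brighter probe and a log2 ratio of 1.31 on the other. The brighter probe was past 1.5-fold, but came to 0.21 with another background correction. Mmp3 had 141 and 125 (-0.17, within-array error 0.22). Mmp12 was above background on 1 array and Mmp9 on neither.

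Other metal-handling genes were split between higher and lower, and the medians of the copper, iron, IL-6 and heat shock lists described here took either sign under the other settings. Of 9 copper-handling genes 7 were detected, with log2 ratios between -0.20 and 0.53 and a median of -0.04, and 0 were past 1.5-fold. The highest was Slc31a2, which encodes a copper transporter of intracellular membranes (0.53 on the brighter probe and 0.21 on the other). All 13 iron-handling genes were detected, 7 higher and 6 lower, with a median of 0.01. Hmox1, which breaks down haem and also answers oxidative stress, read 18957 before loading and 11702 at 24 h (-0.70, within-array error 0.20), with -0.43 on its second probe. Hfe, a regulator of iron uptake, had 1511 and 2530 (0.74, within-array error 0.20). These were the only iron genes past 1.5-fold.

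Metallothionein genes are also known to be induced by glucocorticoids and by IL-6 through STAT3, and lists of other genes of these pathways were read. Besides targets, the lists hold parts of the pathways themselves, Nr3c1 in the first and Stat3, Il6st, Il6ra and Osmr in the second. Their counts and medians are therefore not those of targets alone. All 10 glucocorticoid genes were detected, 6 lower and 4 higher, with a median of -0.18 that stayed between -0.19 and -0.08 under the other settings. Of the 10, 5 were lower and 2 were higher by more than their own errors, and 0 were past 1.5-fold. The lowest was Dusp1 (-0.51) and the highest Klf9 (0.38), while Fkbp5 and Tsc22d3 had -0.23 and -0.28. All 10 genes of the IL-6 and STAT3 list were detected, 5 higher and 5 lower, with a median of -0.04. Saa3, an acute-phase gene, had 395 before loading and 213 at 24 h (-0.89, within-array error 0.21) and was the only one past 1.5-fold. Of 8 heat shock genes 7 were detected, 0 of them past 1.5-fold, with a median of -0.02. The part of these responses in the lower values of Mt1 and Mt2 was not tested.

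**Figure D4:**
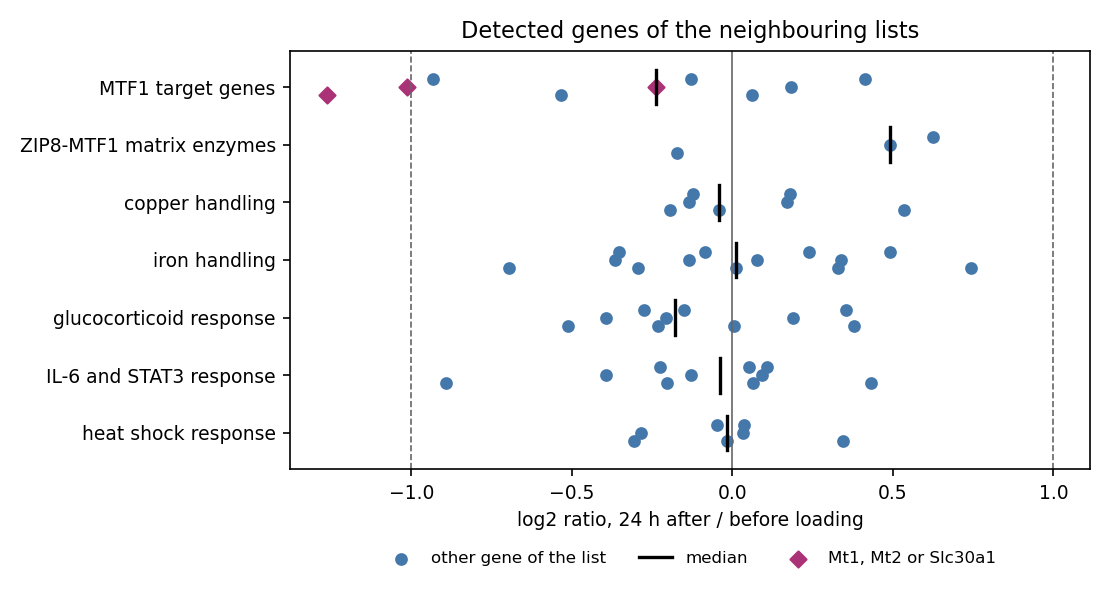
log2 ratio of 24 h after over before loading for each detected gene of 7 lists (points; diamonds are Mt1, Mt2 and Slc30a1) with the median of each list (vertical bar). Dashed lines mark 2-fold. Apart from Mt1 and Mt2, no gene of these lists lies beyond them, with Ndrg1 (-0.93) and Saa3 (-0.89) the lowest of the others.

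Markers of cartilage were present, since all 10 chondrocyte markers were detected. Of these, 5 were higher and 2 were lower by more than their own errors, with log2 ratios from -0.82 (Col11a1) to 0.56 (Matn1). Their summed intensity, to which the brightest probes contribute most, was 1232999 before loading and 1226508 at 24 h. Of the adipocyte markers 4 of 5 were detected and 3 were past 1.5-fold higher, while Pparg was lower (-0.27, within-array error 0.07). The summed intensity of the adipocyte list was 1689 before loading and 2509 at 24 h. Of the osteoblast markers 4 of 5 had a probe and 3 were detected, all lower, with a sum of 378 and 146. Of 7 macrophage markers 6 were detected, 4 higher and 2 lower, with a median log2 ratio of 0.15. Ptprc, which marks blood cells in general, was more than 2-fold higher on a dim probe (20.9 and 46.1). The sum of the list was 4246 and 4059, most of it from the brightest probe of Csf1r (3646 and 3288). That probe had a log2 ratio of -0.15 (within-array error 0.20), and the dimmer probes of Csf1r had 0.20 and 0.27. All 5 fibroblast and tenocyte markers were detected (48106 and 47782), 3 higher and 2 lower. Of them, 1, Dpt, was more than 2-fold higher, and Scx was lower (-0.44, within-array error 0.20). The endothelial markers Cdh5, Tek and Emcn, the muscle markers Myod1, Des and Ckm and 4 of 5 erythroid markers were not well above background before or after loading. Detected endothelial markers were Kdr (12774 and 12375 on its brighter probe, the other not well above background) and Pecam1 (112 and 130). Kdr encodes VEGFR2, for which the authors report positive cells in culture, so that its signal may also come from cells that are not endothelial. Detected muscle markers were Acta1 (1001 and 806) and Myog (38.9 and 36.0). The summed lists read 12900 and 12525 (endothelial, most of it from Kdr), 1089 and 883 (muscle) and 83.3 and 89.7 (erythroid). The part of these cells in the lower values of Mt1 and Mt2 was not tested.

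**Figure D5:**
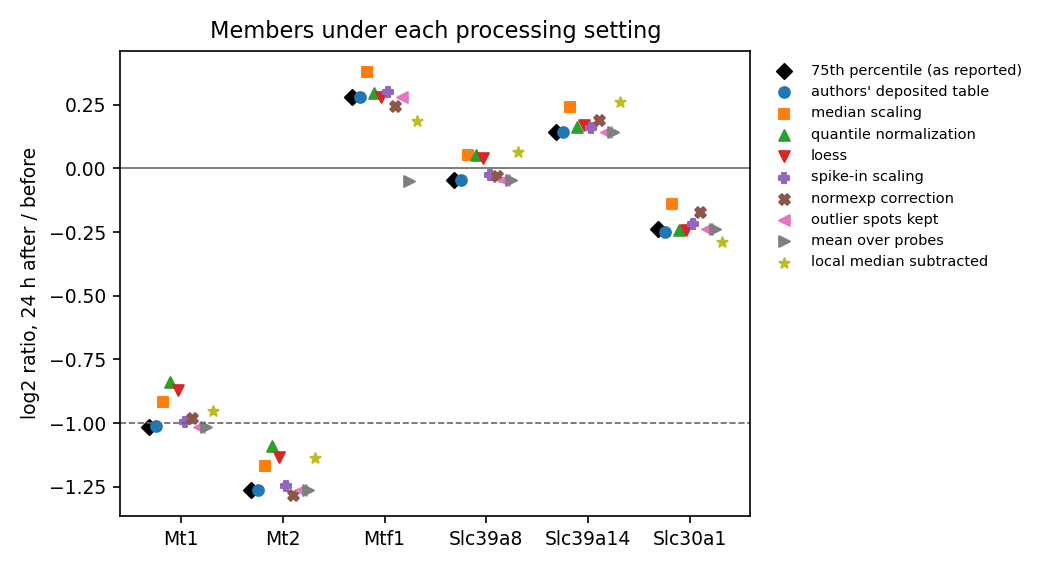
log2 ratio of 24 h after over before loading for each of the 6 members as reported (black diamonds) and under 9 other settings (coloured symbols). The dashed line marks 2-fold lower. Mt2 stays below the line, Mt1 lies on both sides of it, Slc39a8 lies around 0, and the mean over probes takes Mtf1 from 0.28 to -0.05.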

How the data were processed

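RNA before loading and 24 h after loading was hybridised to 1 Agilent mouse array each. The authors deposited the spot intensity that Feature Extraction 10.10.1.1 gave after background subtraction, without normalization between arrays, and a table of the same intensities. Outlier spots of either array were dropped and spots of one probe averaged, which left 55678 probes. Each array was scaled on the log2 scale to its 75th percentile (466.4 before loading and 466.2 at 24 h as intensities), and log2 ratios are 24 h minus before. Accessions were named through a RefSeq table (GRCm38.p6), and the brightest probe stands for its gene. A probe with several spots counts as well above background when most or an equal share of its spots do. With 1 array per time point no test was run, and precision is limited by this number. Of the spots, 59.1% and 57.7% were well above background, and 0 were saturated.

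By rule, the text names all members, the matrix enzymes, genes of the other lists past 1.5-fold and the extremes of the transporter families. Further genes of these lists, and Mfsd2b, were chosen after their values were seen. In all there were 10 gene lists and 8 marker lists, the latter given as counts. Members and lists were chosen with earlier results of these data known. A total of 10 alternatives were listed, and 1, the local median, was added after seeing the data. The calculation was tested on simulated data. Normexp correction used limma 3.58.1 in R 4.3.3 with an offset of 50, and the rest Python 3.11.15 and pandas 2.3.3.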

Additional observations from a re-analysis of the deposited data

How the results depend on the processing

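Under the 9 other settings run for the members, their log2 ratios shifted by less than the within-array error, except that the log2 ratio of Mtf1 came to -0.049 with the mean over probes, its detected probes differing in sign. Subtracting the local median of neighbouring spots was chosen after seeing the data. The number of members more than 2-fold lower was 2 as reported and 1 with median scaling, quantile normalization, loess, spike-in scaling, normexp correction and the local median, because Mt1 came inside 2-fold (-0.92, -0.84, -0.87, -0.996, -0.98 and -0.95). The number more than 1.5-fold lower was 2 under every setting, and 0 members were higher by either fold. Normexp correction, run on the median spot intensity, gave 38 detected genes more than 2-fold higher and 118 lower, against 95 and 260 as reported, the counts were 192 and 507 for genes detected on at least 1 array, and with no filter on dim probes they were 492 and 983. Of 36 further genes in the lists, 3 shifted beyond their error with normexp correction (Adamts5, Mmp12 and Saa3) and 1 with the mean over probes (Adamts5). Of the 9 past 1.5-fold, 0 changed sign. These 9 include dim genes, namely Mmp12, well above background on 1 array, and Slc30a3 and Slc39a12, well above it on neither. The medians of the SLC39, SLC30 and MTF1 target lists kept their sign under all settings. That of the MTF1 targets is the value of the member Slc30a1 itself. Without the members, the median of the MTF1 targets lies midway between Gclc and Csrp1, and it did not keep its sign. Gclc and Csrp1 had -0.13 and 0.06 as reported, and -0.03 and 0.16 with median scaling. Signal over background limits what can be read for Slc39a8 and the dim Mtf1 probe. No paired analysis was possible because each time point has a single array.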
